A study of Mus musculus with 15 samples.

Results

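Bone marrow-derived macrophages (BMDMs) given the TLR7 agonist CL075 were compared with BMDMs that were given no agonist. The comparison rests on 10 of the 15 RNA-seq libraries of the study, taken by their label of treatment: 5 of BMDMs treated with 4 µM CL075 for 6 h and 5 of control BMDMs, with all 25814 genes of the deposited table as its members. The other 5 libraries, of BMDMs treated with 10 µg/ml poly(I:C) for 6 h, entered the same model and are used only where a response to CL075 is set beside them. All BMDMs came from adult wild-type C57BL/6 mice and were grown in medium conditioned by L929 cells, so every group had been exposed to the macrophage growth factors of that medium. The labels do not say whether the control BMDMs received the solvent of CL075, how many mice were used, or whether a replicate number stands for a mouse, so p-values measure the spread between these libraries, which may be technical.

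TLR7 is a receptor of the endosome that binds single-stranded RNA and small molecules of the imidazoquinoline and related classes, of which CL075, a thiazoloquinoline, is one. Bound TLR7 recruits the adaptor MYD88 and the kinases IRAK4, IRAK1 and IRAK2, and the ligase TRAF6 then activates TAK1, which leads to NF-kB, to the MAP kinases and, through IRF5 and IRF7, to interferon genes. In macrophages the pathway is known for cytokine and chemokine genes that switch on within minutes and are then held in check by proteins that the same pathway induces.

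Each library held between 21816291 and 32042680 counts with CL075 and between 25661175 and 31159953 counts in control BMDMs. Of the 25814 genes, 11804 had enough counts to be tested. Levels are given as CPM, counts scaled by TMM factors to a library of one fixed size, and log2 fold changes are CL075 over control with the standard error (SE) of the edgeR fit, which falls below the counting error where a group holds few counts. To be called, a gene had to pass an adjusted p of 0.05 and a fold of 1.5, and to reach on average more than 0.5 TPM with CL075 or in control BMDMs. By this rule 2082 genes, 17.6% of those tested, were called higher and 2534 genes, 21.5%, were called lower with CL075. In 4437 of these 4616 calls the 5 CL075 libraries did not overlap the 5 control libraries. The share without overlap over all genes tested is not given. A lack of overlap, here and below, therefore describes a called gene and is not support beyond its call.

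The calls were of unlike depth. The 2082 genes called higher had a median of 55.7 CPM with CL075 and 24.7 CPM in control BMDMs, and took up 40.5 ± 0.84% of all counts with CL075 and 22.0 ± 0.67% in control BMDMs (mean ± SD, n = 5). The 2534 genes called lower had a median of 3.80 CPM with CL075 and 8.65 CPM in control BMDMs, and took up 3.66 ± 0.17% of the counts with CL075 and 10.1 ± 0.36% in control BMDMs. Among the genes called higher, 952 changed by 1.5 to 2 times and 203 by more than 8 times, whereas 1133 of those called lower changed by 1.5 to 2 times and 104 by more than 8 times. A bulk library counts all cells together, so a change in the number of cells of one kind and a change of the RNA in each cell cannot be told apart.

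The balance of the calls depended on the scale. The median log2 fold change of the 11804 genes was -0.02 with TMM factors, 0.02 with RLE size factors, -0.18 under upper-quartile scaling and -0.37 with library totals, and the share of calls that were higher was 45.1%, 48.2%, 33.5% and 22.4%. Each list of genes below can therefore be read against a median of -0.02 and against shares of 17.6% called higher and 21.5% called lower, and a log2 fold change with library totals is about 0.35 lower than the value given. The lists were chosen with earlier results of these data known. The shares are thus a scale for reading a list and not a test of it.

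**Figure D1:**
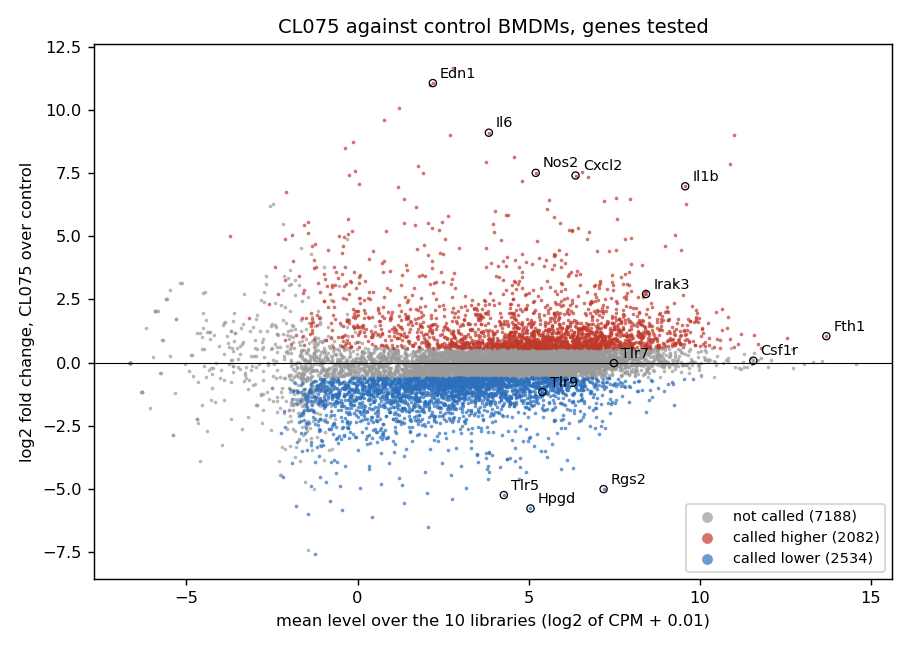
Log2 fold change of CL075 over control (vertical axis) against the mean level over the 10 libraries (horizontal axis, log2 CPM) for the 11804 genes tested. Each point is a gene, with the 2082 genes called higher in red, the 2534 called lower in blue and the others in grey. The points named are genes described in the text, among them Il6 at 9.09, Hpgd at -5.77 and Edn1, which had 0 counts in control BMDMs.

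The levels of Tlr7 and of the proteins that bring its product to the endosome did not pass the test, while several of its inhibitors and neighbouring receptors did. Tlr7 itself stood at 174, 178, 201, 192 and 152 CPM with CL075, against 171, 173, 198, 201 and 165 CPM in control BMDMs. The groups overlapped, with a log2 fold change of -0.02 ± 0.07 (SE, edgeR adjusted p = 0.83). The same held for Unc93b1, the chaperone that carries the receptor out of the endoplasmic reticulum (0.01 ± 0.07), and for the proteases Ctsb, Ctss and Lgmn that cut endosomal receptors into their active form (between -0.04 and 0.03).

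Of 28 genes tested on the path from the receptor to its kinases, of 29 listed, 10 were called higher, 1 lower (2 with library totals) and 17 were not called, with a median of 0.46. The largest rise was that of Irak3, which encodes a member of the IRAK family known as a brake on the pathway, at 592, 622, 615, 586 and 585 CPM with CL075, against 93.2, 90.1, 94.1, 89.7 and 90.2 CPM in control BMDMs. Every CL075 library lay above every control library, with a log2 fold change of 2.71 ± 0.05 (SE, edgeR adjusted p = 1.0e-17). The adaptor gene Myd88 stood at 201, 204, 234, 263 and 216 CPM with CL075, against 77.1, 73.5, 85.3, 84.7 and 79.7 CPM in control BMDMs, also without overlap, with a log2 fold change of 1.48 ± 0.07 (SE, edgeR adjusted p = 5.4e-13). Pik3ap1, an adaptor that links Toll-like receptors to PI3 kinase (1.62 ± 0.05), Tank (1.53 ± 0.06), Irak2 (1.44 ± 0.05), the ubiquitin ligase gene Peli1 (1.45 ± 0.07), Map3k8 (1.17 ± 0.07) and Traf3 (1.16 ± 0.07) rose as well. Ikbkg, the regulatory subunit of the IkB kinase (0.67 ± 0.10), and Ube2n, an E2 enzyme that works with TRAF6 (0.63 ± 0.06), were called at a fold just over 1.5, and were not called with upper-quartile factors, with library totals or by glmTreat, which tests against that fold.

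Other proximal members did not pass the rule. Irak4 had -0.42 ± 0.04, Irak1 0.02 ± 0.04, Map3k7, which encodes TAK1, 0.09 ± 0.04, and Traf6 0.47 ± 0.06, none of them past the fold of 1.5, although Irak4 was called lower with library totals. Tab1, a partner of TAK1, was the gene of the list that fell, at 6.72, 6.78, 6.67, 7.26 and 8.08 CPM with CL075, against 12.4, 11.3, 10.8, 11.3 and 13.7 CPM in control BMDMs. Its groups did not overlap, with a log2 fold change of -0.74 ± 0.09 (SE, edgeR adjusted p = 6.3e-07).

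Among the Toll-like receptors, Tlr5, the receptor of flagellin, had the deepest fall. It stood at 1.06, 1.22, 0.826, 0.88 and 0.999 CPM with CL075, against 31.6, 41.9, 44.7, 35.3 and 35.3 CPM in control BMDMs. The groups did not overlap, with a log2 fold change of -5.24 ± 0.13 (SE, edgeR adjusted p = 1.7e-16), and it was 1 of 104 genes called lower at over 8 times. Tlr9, which binds CpG DNA in the same compartment as TLR7, fell as well, at 24.2, 22, 26.1, 27.3 and 31.3 CPM with CL075, against 55, 49.5, 64.1, 60 and 63.9 CPM in control BMDMs. The groups did not overlap, with a log2 fold change of -1.16 ± 0.10 (SE, edgeR adjusted p = 3.4e-09). Tlr4, the receptor of lipopolysaccharide, fell just past the fold of 1.5 (-0.59 ± 0.06). Its call was lost with RLE factors, by DESeq2 and glmTreat, and at -0.57 without CL075 replicate 3, -0.54 without CL075 replicate 4, -0.58 without control replicate 3 and -0.57 without control replicate 4.

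The receptors of bacterial lipoproteins went the other way. Tlr1 stood at 369, 332, 414, 374 and 415 CPM with CL075, against 81.3, 74.7, 88.7, 78.6 and 83.2 CPM in control BMDMs. Without overlap between the groups, it had a log2 fold change of 2.23 ± 0.07 (SE, edgeR adjusted p = 3.1e-15). Tlr2 (1.71 ± 0.08), Tlr6 (0.80 ± 0.05), the co-receptor gene Cd14 (1.71 ± 0.07) and the adaptor genes Ticam1 (1.12 ± 0.06), Ticam2 (1.42 ± 0.05) and Tirap (0.70 ± 0.05) rose too. Tlr3, the receptor of double-stranded RNA, was not called (-0.02 ± 0.11), nor were Tlr8 (-0.32 ± 0.06) and Tlr13 (-0.39 ± 0.08). In all, 8 of 20 genes of this list were called higher, 3 lower and 9 were not called; with library totals the numbers were 5 higher and 6 lower, where Tlr6 and Tirap were not called and Tlr8, Tlr13 and Ly86, which encodes a partner of CD180, were called lower, and without the TPM floor 5 were called lower.

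**Figure D2:**
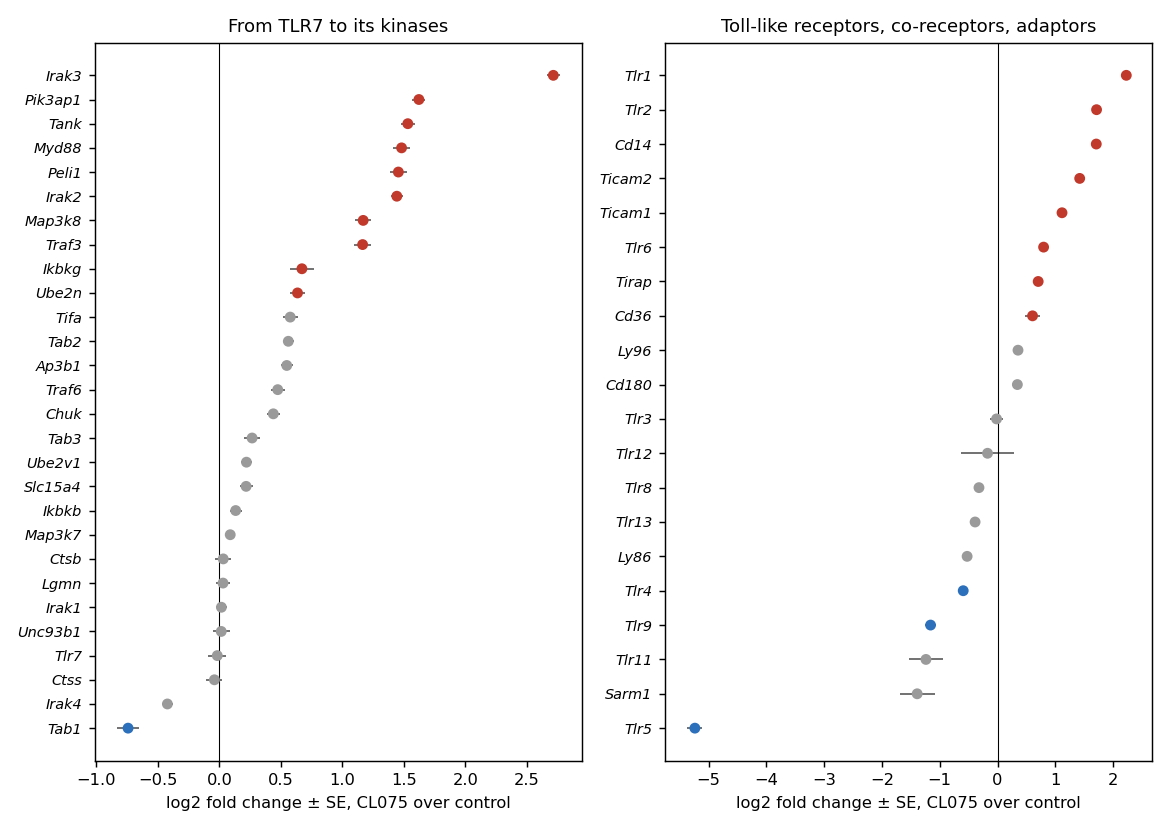
Log2 fold change of CL075 over control (horizontal axis) with its standard error for the 28 tested genes between TLR7 and its kinases (left panel) and for the 20 Toll-like receptors, co-receptors and adaptors (right panel), ordered by value. Red points were called higher, blue points lower and grey points were not called; Tlr7 is at -0.02, Irak3 at 2.71, Tlr1 at 2.23 and Tlr5 at -5.24.

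Most genes of NF-kB subunits, inhibitors and ubiquitin editors rose. Of 20 on the list, all of them tested, 16 were called higher, the other 4 were not called (with library totals 14 were called higher and 1 lower), and the median was 1.80. Nfkbia, which encodes IkB-alpha, the protein that holds NF-kB in the cytosol, stood at 279.5, 289, 337, 335 and 314 CPM with CL075, against 34.8, 35.7, 34.3, 32.9 and 34.6 CPM in control BMDMs. Without overlap, it had a log2 fold change of 3.17 ± 0.07 (SE, edgeR adjusted p = 1.5e-17). Tnfaip3, which encodes the ubiquitin editor A20, stood at 228, 261, 284, 249 and 199 CPM with CL075, against 9.83, 11.5, 12.8, 11.5 and 12.1 CPM in control BMDMs, also without overlap, with a log2 fold change of 4.40 ± 0.09 (SE, edgeR adjusted p = 1.5e-17). Nfkbiz, a nuclear cofactor needed for Il6 and Lcn2 (3.49 ± 0.09), and Tnip3, a partner of A20 (3.10 ± 0.08), were of the same order, and the subunit genes Nfkb1 (1.74 ± 0.05) and Nfkb2 (1.78 ± 0.08) rose by less.

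Proteins that act on the MAP kinases and on cytokine mRNA are known as further restraints, of which only the RNA levels were measured here. Of 28 MAP kinase phosphatases and immediate early factors tested, of 30 listed, 17 were called higher and 2 lower (5 with library totals), with a median of 1.16. Dusp2, a nuclear phosphatase of ERK and p38, rose from a low level, at 7.62, 9.46, 12.3, 14.8 and 12.9 CPM with CL075, against 0.287, 0.265, 0.379, 0.515 and 0.465 CPM in control BMDMs. Its groups lay far apart, with a log2 fold change of 4.89 ± 0.22 (SE, edgeR adjusted p = 5.1e-13). Dusp16 (3.51 ± 0.09), Klf6 (1.84 ± 0.06), Atf3, a repressor of cytokine genes (1.72 ± 0.08), and Jun (1.27 ± 0.08) rose, while Klf2 (-1.78 ± 0.19) and Klf4 (-0.76 ± 0.09) fell and Fos was not called (-0.43 ± 0.10, called lower with library totals). Of 19 regulators of mRNA decay, 6 were called higher and 2 lower, with a median of 0.12. With library totals the numbers were 3 and 3 and the median was -0.23. Those that rose most encode the endonucleases of the Regnase family, Zc3h12c (3.44 ± 0.09) and Zc3h12a (2.92 ± 0.06), and those that fell, Zfp36l1 (-1.08 ± 0.08) and Zfp36l2 (-1.61 ± 0.06), encode proteins that bind AU-rich elements and recruit deadenylases. Of the exon bases of Zfp36l1, 55.9% are shared with antisense genes, whose reads may have been counted with it.

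Secreted proteins held many of the largest rises. Il6 stood at 23.4, 26.8, 35.5, 34 and 23.2 CPM with CL075, against 0, 0.159, 0.0271, 0.0286 and 0.0232 CPM in control BMDMs. The groups lay far apart, with a log2 fold change of 9.09 ± 0.27 (SE, edgeR adjusted p = 1.6e-15). Il1b, the secreted interleukin 1 that caspase-1 matures, reached a much higher level, at 1183, 1611, 1923, 1504 and 1376 CPM with CL075, against 7.77, 10, 16.6, 11.7 and 14.1 CPM in control BMDMs. Again no library overlapped, with a log2 fold change of 6.97 ± 0.21 (SE, edgeR adjusted p = 1.9e-15). Il1a, the cell-bound form, stood at 42.8, 57.3, 73.6, 63.1 and 39.7 CPM with CL075, against 0.086, 0.239, 0.487, 0.343 and 0.65 CPM in control BMDMs, and had a log2 fold change of 7.20 ± 0.27 (SE, edgeR adjusted p = 5.1e-14). Of 24 interleukins and related genes tested, of 30 listed, 14 were called higher and 1 lower, with a median of 1.09. The number called lower was 2 without CL075 replicate 1 or 2, without control replicate 1 or 5 and in the fit of 10 libraries, and 5 with library totals. Il12b (8.99 ± 0.35), the shared subunit of interleukins 12 and 23, Il1rn (4.47 ± 0.14), the antagonist of interleukin 1, and Il10 (2.44 ± 0.15), a cytokine that dampens macrophages, were among them, and Il18rap, a chain of the receptor of interleukin 18 (-1.68 ± 0.16), was the gene that fell.

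Chemokines that draw neutrophils stood out among the 23 tested of 28 listed, of which 16 were called higher and 2 lower (4 with library totals), with a median of 1.34. Cxcl2 stood at 150, 209, 173, 172 and 121 CPM with CL075, against 0.803, 1.57, 0.785, 1.03 and 0.697 CPM in control BMDMs. Cxcl1 stood at 29.5, 38.2, 23.1, 29.5 and 15 CPM with CL075, against 0.086, 0.186, 0.0542, 0.0286 and 0.163 CPM in control BMDMs, and Cxcl3 at 46, 70.7, 48.1, 41.5 and 31.7 CPM with CL075, against 0.0573, 0.345, 0.0542, 0.143 and 0.209 CPM in control BMDMs. In all of these genes every CL075 library was over 10 CPM and every control library under 2 CPM, with log2 fold changes of 7.40 ± 0.23, 7.93 ± 0.35 and 8.13 ± 0.30. The chemokines of monocytes and T cells were high as well: Ccl3 (497 ± 60.5 CPM with CL075 and 5.61 ± 0.316 CPM in control BMDMs) and Ccl4 (374 ± 73.6 CPM with CL075 and 4.11 ± 0.604 CPM in control BMDMs) led by level. The ligands of CXCR3, which interferons induce, rose by less, with Cxcl10 at 4.06 ± 0.21 and Cxcl9 at 1.34 ± 0.24. Cxcl14 (-2.44 ± 0.25) and Cx3cl1 (-0.64 ± 0.11) fell, the second with no call by glmTreat and with no call at -0.58 without CL075 replicate 5.

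The promoters of 9254 of the 11804 tested genes could be read from RefSeq (GRCm38.p6, 250 bases before to 50 bases after the start site). A core of the NF-kB motif, GGGNNTTTC, was searched on both strands, and matched 102 of 1639 promoters of genes called higher (6.22%), 83 of 1972 of genes called lower (4.21%), 227 of 5643 of genes not called (4.02%) and 4.45% of all 9254. Among the 160 promoters of genes that were called higher at over 8 times, 14 (8.75%) held it. By list, it matched 6 of 16 promoters of the NF-kB list, 5 of 16 of chemokines and 2 of 17 of interleukins. It matched 1 of 18 in the TNF family and 1 of 18 in prostanoid metabolism. The promoters of Ptgs2, Ccl3 and Cxcl10 held no match to these letters, and other forms of the NF-kB site were not searched. Matches for GGGNNTTTC, or for its reverse complement, stood in the promoters of Il6, Cxcl1, Cxcl2, Cxcl3, Nfkbia and Tnfaip3. These were picked from the response described above, and only promoters with a match are shown, here and below. Nfkbia, like Mmp13, Isg15 and Ifit1 below, was chosen for display after its values had been seen. Capitals mark the matches.
Il6 (chr5:30012864-30013163, + strand): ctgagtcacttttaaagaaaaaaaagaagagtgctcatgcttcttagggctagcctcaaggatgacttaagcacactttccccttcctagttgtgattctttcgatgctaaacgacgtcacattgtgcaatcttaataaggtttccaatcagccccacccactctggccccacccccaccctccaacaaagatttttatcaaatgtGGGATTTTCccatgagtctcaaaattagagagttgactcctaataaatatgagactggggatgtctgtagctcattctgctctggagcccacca
Cxcl1 (chr5:90890995-90891294, + strand): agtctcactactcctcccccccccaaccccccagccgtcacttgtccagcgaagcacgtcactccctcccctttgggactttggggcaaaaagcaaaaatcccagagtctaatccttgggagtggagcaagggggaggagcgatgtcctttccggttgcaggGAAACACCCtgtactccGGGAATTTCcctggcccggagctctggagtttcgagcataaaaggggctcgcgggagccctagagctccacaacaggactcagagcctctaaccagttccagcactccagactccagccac
Cxcl2 (chr5:90903649-90903948, + strand): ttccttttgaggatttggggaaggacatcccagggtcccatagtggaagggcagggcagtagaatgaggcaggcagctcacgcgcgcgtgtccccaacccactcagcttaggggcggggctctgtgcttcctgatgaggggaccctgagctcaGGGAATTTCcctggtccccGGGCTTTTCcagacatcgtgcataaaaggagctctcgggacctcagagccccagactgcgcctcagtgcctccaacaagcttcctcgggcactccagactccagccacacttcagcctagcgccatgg
Cxcl3 (chr5:90785851-90786150, + strand): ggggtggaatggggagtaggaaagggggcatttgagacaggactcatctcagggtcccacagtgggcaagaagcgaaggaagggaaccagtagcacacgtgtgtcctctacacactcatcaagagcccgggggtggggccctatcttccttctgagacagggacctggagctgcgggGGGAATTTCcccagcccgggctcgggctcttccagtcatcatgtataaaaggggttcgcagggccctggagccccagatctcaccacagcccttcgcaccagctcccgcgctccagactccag
Nfkbia (chr12:55492598-55492897, - strand): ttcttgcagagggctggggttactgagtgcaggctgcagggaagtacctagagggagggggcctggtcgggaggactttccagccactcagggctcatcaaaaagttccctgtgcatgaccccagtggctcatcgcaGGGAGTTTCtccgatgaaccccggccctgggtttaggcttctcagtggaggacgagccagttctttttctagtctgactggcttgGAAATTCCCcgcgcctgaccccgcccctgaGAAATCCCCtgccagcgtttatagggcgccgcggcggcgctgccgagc
Tnfaip3 (chr10:19015361-19015660, - strand): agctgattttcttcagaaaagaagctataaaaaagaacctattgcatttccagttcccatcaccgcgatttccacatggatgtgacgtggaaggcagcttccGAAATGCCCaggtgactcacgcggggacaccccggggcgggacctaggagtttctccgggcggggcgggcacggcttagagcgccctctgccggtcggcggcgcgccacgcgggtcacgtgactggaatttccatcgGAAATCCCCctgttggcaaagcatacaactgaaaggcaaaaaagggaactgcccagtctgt

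The AP-1 motif TGANTCA, searched in the same way on both strands, matched 27 of the 160 promoters of genes called higher at over 8 times (16.9%), against 113 of 1639 of all genes called higher (6.89%), 96 of 1972 of genes called lower (4.87%) and 5.02% of all promoters. No AP-1 match overlapped an NF-kB match in any promoter. TGANTCA stood in the promoters of Mmp13, which encodes a collagenase, and of Il1a, marked by capitals here.
Mmp13 (chr9:7272264-7272563, + strand): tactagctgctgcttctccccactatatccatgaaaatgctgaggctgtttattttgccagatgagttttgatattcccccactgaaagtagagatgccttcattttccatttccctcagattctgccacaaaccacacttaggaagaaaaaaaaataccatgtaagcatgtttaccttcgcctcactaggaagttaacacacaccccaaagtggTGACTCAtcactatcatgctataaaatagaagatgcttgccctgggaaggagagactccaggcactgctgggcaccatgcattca
Il1a (chr2:129309923-129310222, - strand): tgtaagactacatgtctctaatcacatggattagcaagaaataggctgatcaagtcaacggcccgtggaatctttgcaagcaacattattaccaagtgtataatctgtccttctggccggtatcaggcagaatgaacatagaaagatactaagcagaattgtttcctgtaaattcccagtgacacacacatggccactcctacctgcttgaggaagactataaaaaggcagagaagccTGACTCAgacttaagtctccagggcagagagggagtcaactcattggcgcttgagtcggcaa

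In the 3 CXC chemokine genes, which lie near each other on chromosome 5, a match of the same letters, GGGAATTTC, began 71 (Cxcl1), 97 (Cxcl2) and 73 (Cxcl3) bases before the start site. A pair of further motifs, the CRE (TGACGTCA) and the E box (CACGTG), were searched on both strands as well and matched 55 and 173 of the 1639 promoters of genes called higher (3.36% and 10.6%), against 3.29% and 10.3% of all promoters. Among the 160 promoters of genes called higher at over 8 times, they matched 2 (1.25%) and 12 (7.5%). A match is a description of letters and not of a bound site.

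The receptors of chemoattractants split evenly, with 10 of 28 tested genes called higher and 10 lower. Those that rose most sense products of bacteria and of metabolism: Fpr1, a receptor of formyl peptides, stood at 976, 1047, 964, 961 and 957 CPM with CL075, against 37.5, 42.2, 42.6, 36.6 and 40.7 CPM in control BMDMs. The groups did not overlap, with a log2 fold change of 4.62 ± 0.07 (SE, edgeR adjusted p = 4.4e-19). Hcar2, a receptor of hydroxybutyrate and niacin (5.85 ± 0.15), and Gpr84, a receptor of medium-chain fatty acids (5.24 ± 0.11), rose too, although 39.5% of the exon bases of Gpr84 are shared with the other strand. Cxcr4, which holds leukocytes in the bone marrow, fell, at 6.17, 7.84, 6.34, 5.91 and 5.88 CPM with CL075, against 117, 115, 119, 119.5 and 119.8 CPM in control BMDMs. It had a log2 fold change of -4.20 ± 0.09 (SE, edgeR adjusted p = 1.5e-17), again without overlap, and Gpr183, a receptor of oxysterols, had -3.58 ± 0.12.

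In the TNF family 12 of 24 tested genes, of 30 listed, were called higher and 7 lower. Tnf (143 ± 11.2 CPM with CL075 and 3.75 ± 0.425 CPM in control BMDMs), Tnfrsf9, the costimulatory receptor 4-1BB (6.46 ± 0.31), and the receptor genes Tnfrsf1b (2.11 ± 0.08) and Tnfrsf1a (0.90 ± 0.04, not called with library totals) rose. Tnfsf13b, which encodes the B cell survival factor BAFF (-1.77 ± 0.14), and Tnfsf14, which encodes LIGHT (-3.57 ± 0.28), fell. Tnfrsf1b was the TNF family gene of highest level, at 2575, 2954, 2831, 2672 and 2141 CPM with CL075, against 623, 623, 619, 609 and 573 CPM in control BMDMs. Each CL075 library lay at more than 3 times the level of any control library.

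Growth factors and matrix enzymes included genes that had no counts at all in control BMDMs. Edn1, which encodes endothelin-1, held 1344 counts over the CL075 libraries and 0 over the control libraries, and was at least 574-fold higher against the floor of 3 counts over the group. Csf3, which encodes the neutrophil growth factor G-CSF, held 1253 counts with CL075 and 0 in control BMDMs, at least 535-fold higher by the same floor. Of 25 genes tested of 30 listed, 16 were called higher and 2 lower. Mmp14, a membrane-bound matrix protease (489.5 ± 27.8 CPM with CL075 and 16 ± 4.17 CPM in control BMDMs), had a log2 fold change of 4.93 ± 0.14 (SE, edgeR adjusted p = 7.0e-16), while Plau, which encodes urokinase (-1.84 ± 0.10), and Pdgfa (-1.07 ± 0.14, with 26.1% of its exon bases shared with the other strand) fell. The receptor gene Csf1r was not called, at 3171, 3284, 3067, 2947 and 3175 CPM with CL075, against 2967, 2865, 2984, 2931 and 3071 CPM in control BMDMs.

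**Figure D3:**
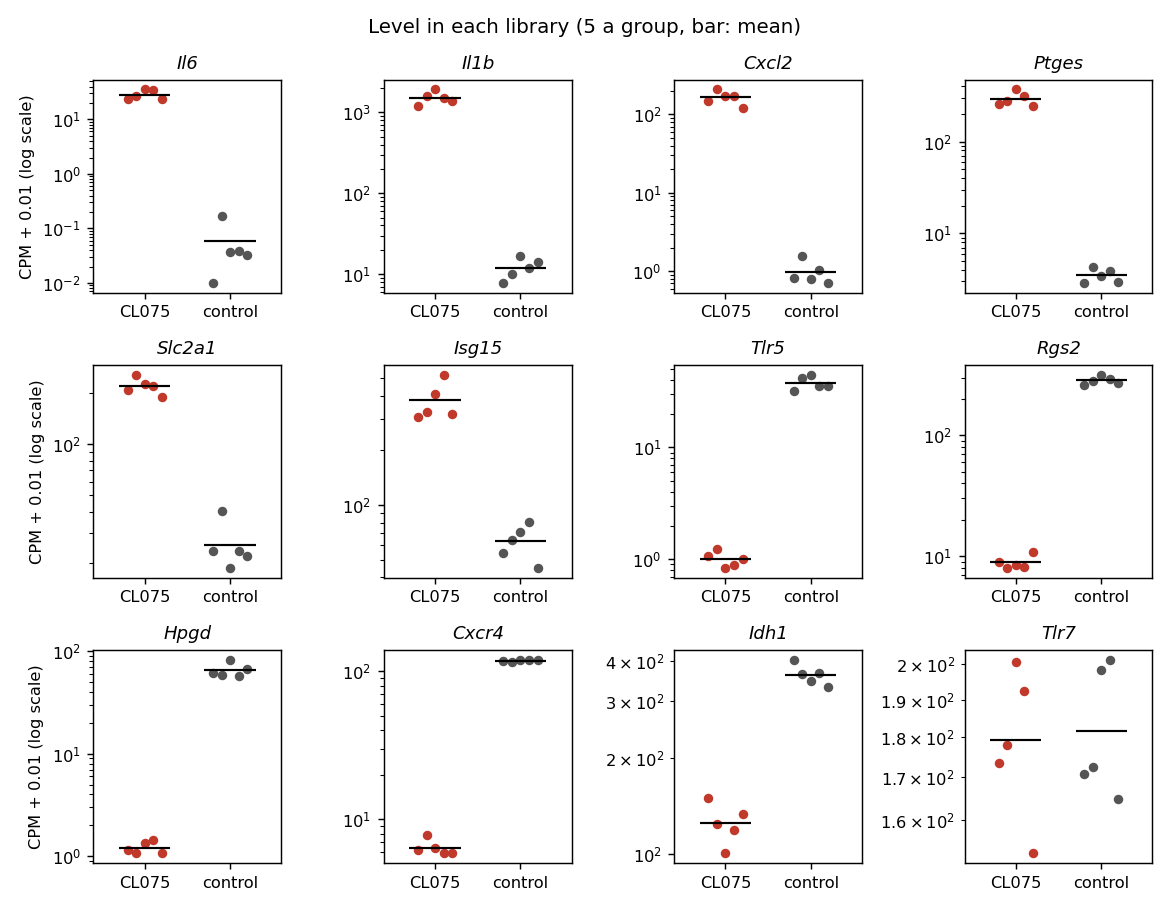
Level of 12 genes in each library (vertical axes, CPM on a log scale, with 0.01 added so that a value of 0 can be drawn), with the 5 CL075 libraries on the left and the 5 control libraries on the right of each panel. Bars mark the group means; Il6, Il1b, Cxcl2, Ptges, Slc2a1 and Isg15 are higher and Tlr5, Rgs2, Hpgd, Cxcr4 and Idh1 lower with CL075, and the points of Tlr7 overlap between the groups.

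The interferon response was broad and of moderate size. Ifnb1, the gene of interferon beta, stood at 0.255, 0.265, 0.495, 0.88 and 0.571 CPM with CL075, against 0, 0.0531, 0.0271, 0.0286 and 0.0232 CPM in control BMDMs. Its level stayed under 1 CPM in every CL075 and control library. The CL075 libraries still lay above the control libraries, with a log2 fold change of 4.02 ± 0.46 (SE, edgeR adjusted p = 2.8e-07). Of 39 interferon-stimulated genes tested, of 40 listed, 37 were called higher, the other 2 were not called, and the median was 1.29. Isg15, a ubiquitin-like modifier (378 ± 91.7 CPM with CL075 and 63 ± 13.9 CPM in control BMDMs), had a log2 fold change of 2.59 ± 0.16 (SE, edgeR adjusted p = 3.6e-11). The 4 most abundant were Parp14 (1.21 ± 0.10), Ifit2 (1.49 ± 0.19), Rsad2 (2.67 ± 0.20) and Ifit3 (1.09 ± 0.18), whose reads can be shared with its close copy Ifit3b, and the largest rises were those of the guanylate-binding protein genes Gbp5 (3.14 ± 0.20) and Gbp2 (2.83 ± 0.21).

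A core of the interferon-stimulated response element (ISRE), GAAANNGAA, searched on both strands, was found in 20 of 28 promoters of that list, in 170 of 1639 of all genes called higher (10.4%), in 119 of 1972 of genes called lower (6.03%) and in 7.65% of all promoters. Among the 160 promoters of genes called higher at over 8 times, 22 (13.8%) held it. ISRE and NF-kB matches overlapped in 5 promoters of the 9254, and ISRE and AP-1 matches in no promoter. GAAANNGAA, or its reverse complement where the element lies on the other strand, is marked by capitals in these promoters; that of Isg15 holds 3 matches that run into each other.
Isg15 (chr4:156200769-156201068, - strand): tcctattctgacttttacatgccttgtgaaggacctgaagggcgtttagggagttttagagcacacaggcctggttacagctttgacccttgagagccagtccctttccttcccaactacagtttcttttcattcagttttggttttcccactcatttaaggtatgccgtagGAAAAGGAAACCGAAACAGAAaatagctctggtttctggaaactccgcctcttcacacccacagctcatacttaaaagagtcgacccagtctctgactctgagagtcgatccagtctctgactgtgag
Rsad2 (chr12:26456403-26456702, - strand): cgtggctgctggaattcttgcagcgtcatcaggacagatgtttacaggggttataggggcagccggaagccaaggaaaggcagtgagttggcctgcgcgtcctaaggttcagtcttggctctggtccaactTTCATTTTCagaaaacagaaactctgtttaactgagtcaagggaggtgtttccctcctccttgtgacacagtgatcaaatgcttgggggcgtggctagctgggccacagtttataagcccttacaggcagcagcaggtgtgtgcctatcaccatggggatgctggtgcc
Ifit1 (chr19:34640639-34640938, + strand): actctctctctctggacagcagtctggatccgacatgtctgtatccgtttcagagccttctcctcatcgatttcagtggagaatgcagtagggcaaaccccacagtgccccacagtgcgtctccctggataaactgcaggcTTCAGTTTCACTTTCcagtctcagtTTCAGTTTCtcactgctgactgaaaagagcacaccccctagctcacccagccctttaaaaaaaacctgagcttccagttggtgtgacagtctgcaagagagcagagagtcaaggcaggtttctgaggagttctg

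Of 30 interferons and regulators of interferon signaling tested, of 31 listed, 8 were called higher and 3 lower, or 5 and 5 with library totals. Ifna2 and Ifna4, of the interferon alpha family and chosen after their values were seen, entered the test through poly(I:C) and held 0 counts over the CL075 libraries and over the control libraries. Socs3, the inhibitor of JAK kinases downstream of interleukin 6, stood at 182, 200.1, 247, 239.8 and 194 CPM with CL075, against 1.2, 1.19, 1.33, 1.31 and 1.46 CPM in control BMDMs. The groups lay far apart, with a log2 fold change of 7.34 ± 0.18 (SE, edgeR adjusted p = 1.0e-16). Irf7 (1.46 ± 0.11) rose, and Irf1 (0.13 ± 0.08), Irf3 (0.07 ± 0.05), Irf5 (0.52 ± 0.05), Stat3 (0.39 ± 0.06) and Stat4 (0.00 ± 0.11) were not called. Irf4, a factor of alternative activation (-3.11 ± 0.24), fell.

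Genes of T cell costimulation were more often called higher than lower, and genes of MHC class II presentation more often lower. Of 18 costimulation genes tested, of 20 listed, 9 were called higher and 2 lower (5 with library totals). Cd274, which encodes PD-L1, the ligand that restrains T cells, stood at 394, 459, 509, 478 and 405 CPM with CL075, against 35.1, 39.5, 42.7, 41 and 29.9 CPM in control BMDMs. Without overlap, it had a log2 fold change of 3.58 ± 0.10 (SE, edgeR adjusted p = 4.8e-16), and Slamf7, a receptor of the SLAM family, had 3.07 ± 0.07. Cd200r1, an inhibitory receptor of macrophages (-0.86 ± 0.06), and Vsir, which encodes VISTA (-0.93 ± 0.08), fell. Among 14 genes of MHC class II presentation tested, of 15 listed, 2 were called higher and 5 lower, and the first number was 1 without CL075 replicate 2, without control replicate 3, by glmTreat and under upper-quartile or library-total scaling. March1, a ubiquitin ligase that removes class II molecules from the surface, had 1.97 ± 0.07, Ciita, the master regulator of class II genes, had -4.45 ± 0.16, and the chain genes H2-Aa (0.34 ± 0.22), H2-Eb1 (0.26 ± 0.20) and Cd74 (0.43 ± 0.19) were not called.

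Receptors for uptake rose more often than they fell, with 12 of 29 tested genes called higher and 2 lower (8 with library totals), but the median was 0.18 and turned to -0.17 with library totals. Clec4d, a lectin of mycobacterial glycolipids, was the most abundant, at 1615, 1673, 1522, 1585 and 1401 CPM with CL075, against 622, 707, 587, 603 and 538 CPM in control BMDMs. It had a log2 fold change of 1.35 ± 0.08 (SE, edgeR adjusted p = 1.7e-11), without overlap. Olr1, the receptor of oxidized LDL (4.30 ± 0.35), rose, and Mertk, the receptor that takes up dying cells, fell, at 26.4, 22.2, 20, 24.6 and 30.1 CPM with CL075, against 107, 91, 109.5, 102 and 106 CPM in control BMDMs. With a log2 fold change of -2.06 ± 0.09 (SE, edgeR adjusted p = 1.9e-13), its CL075 libraries were all below 40 CPM and its control libraries all above 90 CPM. In the complement list 7 of 15 tested genes were called higher and 1 lower (2 without CL075 replicate 1, 3 with library totals): Cfb, the factor B of the alternative pathway (2.96 ± 0.11), and C1s1 (3.77 ± 0.26) rose, and C1qb (0.10 ± 0.07) and C1qc (-0.02 ± 0.10) were not called.

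Inducible enzymes that make prostaglandin E2 rose, and the enzyme that degrades it fell. Ptgs2, which encodes the inducible cyclooxygenase COX-2, stood at 74.3, 113, 127, 83.5 and 61.6 CPM with CL075, against 0.946, 2.34, 1.22, 1.63 and 0.697 CPM in control BMDMs. Ptges, the prostaglandin E synthase that works with it, stood at 254, 279.9, 370.3, 317 and 241 CPM with CL075, against 2.87, 4.27, 3.41, 3.92 and 2.95 CPM in control BMDMs. Their log2 fold changes were 6.08 ± 0.29 and 6.39 ± 0.14, with no overlap between the groups of either. Ptgs1, the constitutive cyclooxygenase, fell, at 1.7, 2.48, 2.01, 3.01 and 2.17 CPM with CL075, against 24.8, 24.3, 24.2, 26 and 32.2 CPM in control BMDMs, and had a log2 fold change of -3.53 ± 0.13 (SE, edgeR adjusted p = 1.8e-14). Hpgd, the dehydrogenase that inactivates prostaglandins, fell, with a log2 fold change of -5.77. Of 20 genes of prostanoid and leukotriene metabolism tested, of 24 listed, 11 were called higher (7 with library totals) and 6 lower; Alox5ap, the partner of 5-lipoxygenase, was among those that fell (-0.73 ± 0.05).

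Arginine and itaconate genes had the highest median of all lists, 2.39, with 10 of 14 tested genes called higher and 2 lower. Nos2, the inducible nitric oxide synthase, stood at 76, 94.4, 65.1, 95.8 and 37.1 CPM with CL075, against 0.401, 0.371, 0.514, 0.429 and 0.302 CPM in control BMDMs. The groups lay far apart, with a log2 fold change of 7.51 ± 0.30 (SE, edgeR adjusted p = 1.2e-13). Slc7a11, the cystine transporter, had 361 ± 124 CPM with CL075 and 16.5 ± 7.15 CPM in control BMDMs, a log2 fold change of 4.45 ± 0.29, and Odc1, the first enzyme of polyamine synthesis, had 1.42 ± 0.14. Sat1, the enzyme that acetylates polyamines, fell (-0.95 ± 0.07), as did Pts, an enzyme of tetrahydrobiopterin synthesis (-0.74 ± 0.05).

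Most genes of glycolysis rose. Of 29 genes of glycolysis and the hypoxia response tested, of 30 listed, 24 were called higher and 1 lower (2 with library totals), with a median of 1.38. Slc2a1, the glucose transporter GLUT1, stood at 207, 255, 224, 219 and 189.5 CPM with CL075, against 23.5, 40.6, 18.7, 23.7 and 22 CPM in control BMDMs. No library of one group reached the other, with a log2 fold change of 3.09 ± 0.16 (SE, edgeR adjusted p = 2.9e-12). Ndrg1, a gene induced by hypoxia (3.88 ± 0.10), Ldha, the subunit of lactate dehydrogenase that favours lactate (1.25 ± 0.07), Pgk1 (1.31 ± 0.08) and Gapdh (0.98 ± 0.09) rose. Ldhb, the other subunit of lactate dehydrogenase and not on the list, fell, at 1.32, 1.72, 1.02, 1.58 and 1.37 CPM with CL075, against 20.4, 20.8, 20.4, 20.3 and 26.2 CPM in control BMDMs, with a log2 fold change of -3.95 ± 0.13 (SE, edgeR adjusted p = 4.9e-15). Pfkfb4, an enzyme that sets the level of fructose 2,6-bisphosphate, was the gene of the list that fell (-1.03 ± 0.06).

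Few genes of the tricarboxylic acid cycle were called, and the NADP-dependent isocitrate dehydrogenases had the deepest falls. Of 26 genes tested, 2 were called higher and 5 lower (10 with library totals), with a median of -0.04. Idh1, the cytosolic enzyme that makes NADPH, stood at 149.6, 124, 101, 119 and 133 CPM with CL075, against 404, 364, 347, 368 and 333 CPM in control BMDMs. It had a log2 fold change of -1.54 ± 0.09 (SE, edgeR adjusted p = 3.4e-11), without overlap, and Idh2, its mitochondrial counterpart, had -0.80 ± 0.06. Sdha (-0.09 ± 0.03) and Cs, citrate synthase (0.25 ± 0.03), were not called, and Idh3a (0.71 ± 0.05) and Pcx (0.70 ± 0.16) were called higher but not with upper-quartile factors or library totals, nor Pcx by glmTreat.

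Of 29 genes of beta-oxidation and peroxisomes tested, of 30 listed, 12 were called lower and 17 were not called, with a median of -0.45. Cpt1a, which brings fatty acids into mitochondria, stood at 74.7, 75.5, 74.7, 76.1 and 61.4 CPM with CL075, against 176, 163, 174, 170.4 and 159.8 CPM in control BMDMs. There was no overlap, with a log2 fold change of -1.22 ± 0.06 (SE, edgeR adjusted p = 3.3e-12). Acox3, a peroxisomal oxidase (-1.61 ± 0.06), Hadh (-1.58 ± 0.06) and Hsd17b4 (-0.98 ± 0.05) fell, and Abcd2, outside the list, a peroxisomal transporter of very long fatty acids, had -4.13 ± 0.12. Respiratory chain subunits stood in contrast, with 1 of 30 called higher, the other 29 not called and a median of 0.05, which turned to -0.30 with library totals, where 4 were called lower: Cycs, cytochrome c, rose (1.52 ± 0.08), and Atp5b (0.55 ± 0.04, called higher with RLE factors and by DESeq2), Atp5a1 (0.09 ± 0.04) and Cox4i1 (0.03 ± 0.05) were not called. In sterol metabolism 9 of 30 genes were called lower (18 with library totals, 3 by glmTreat), led by Dhcr7, the last enzyme of cholesterol synthesis (-1.96 ± 0.11), and 2 higher, Ch25h, which makes 25-hydroxycholesterol (5.81 ± 0.34), and Nr1h3, the oxysterol receptor LXR-alpha (1.96 ± 0.13).

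**Figure D4:**
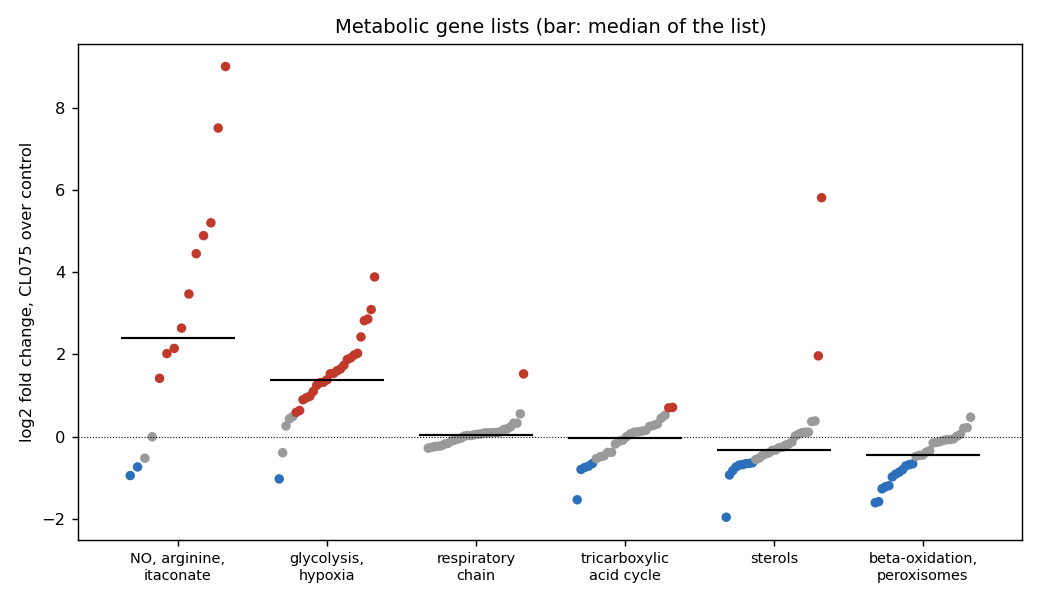
Log2 fold change of CL075 over control (vertical axis) for each tested gene of 6 metabolic lists, with the genes of a list side by side in order of value, red where called higher, blue where called lower and grey where not called. Bars mark the medians, from 2.39 for nitric oxide, arginine and itaconate and 1.38 for glycolysis to -0.45 for beta-oxidation and peroxisomes.

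**Figure D5:**
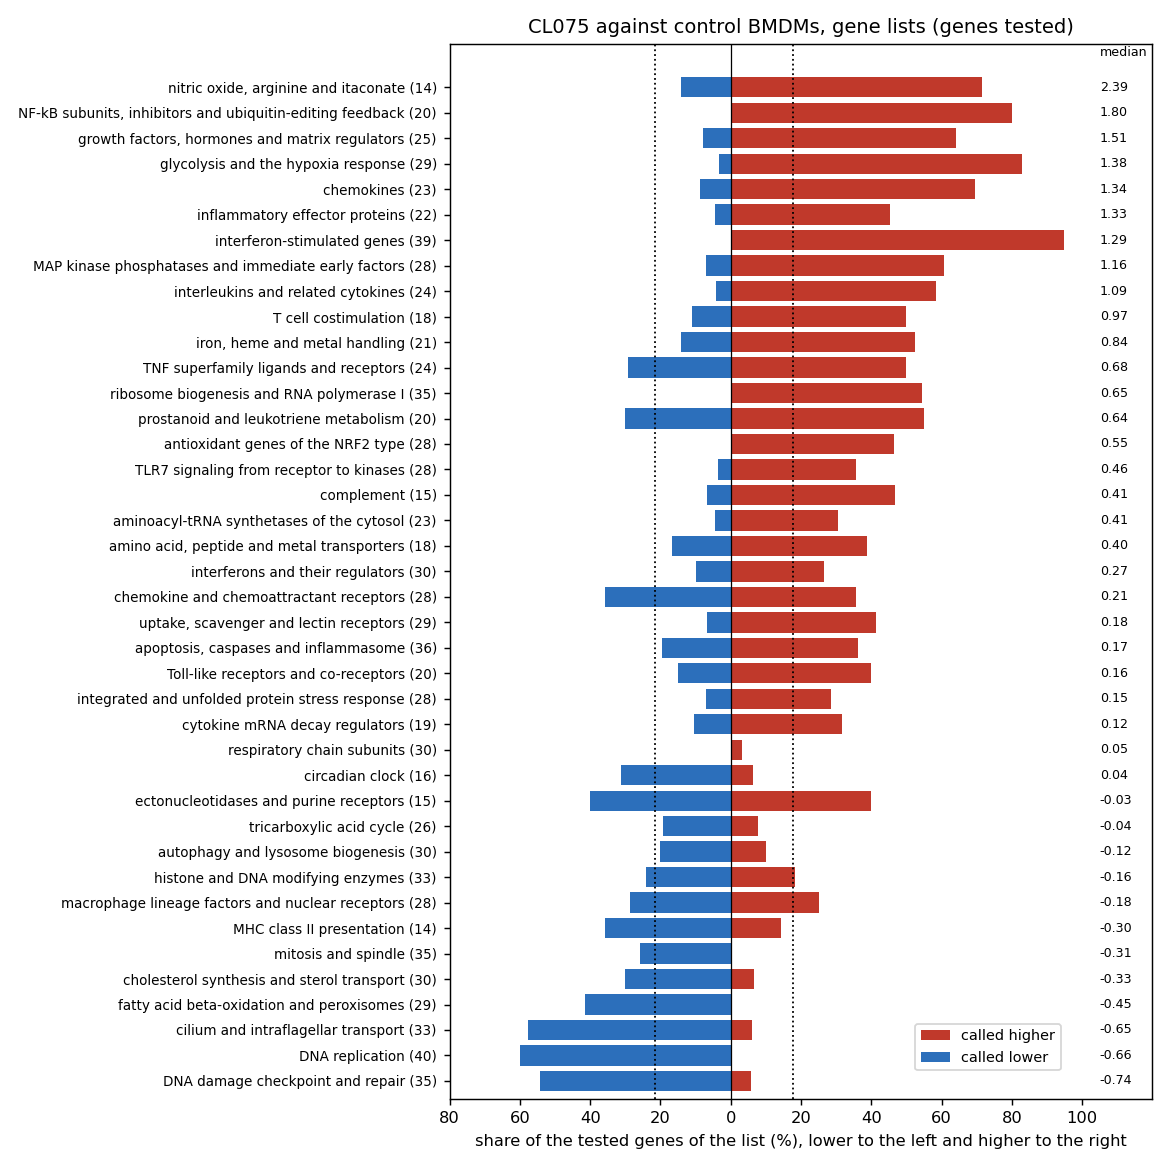
Share of the tested genes of each of 40 lists that were called higher (red, to the right) and lower (blue, to the left) with CL075, ordered by the median log2 fold change of the list, which is printed beside each bar. The dotted lines mark the shares over all 11804 genes, 17.6% called higher and 21.5% called lower; the medians run from 2.39 for nitric oxide, arginine and itaconate to -0.74 for DNA damage checkpoint and repair.

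The genes of ribosome assembly that were called rose, by small steps. Of 35 tested, 19 were called higher and 16 were not called, with a median of 0.65. With library totals the call held for 9 genes and 1 was called lower. Gnl3, which encodes nucleostemin (1.53 ± 0.13), and Nop58, a core protein of box C/D particles (1.27 ± 0.07), had the largest rises, Ddx21, a nucleolar helicase (1.12 ± 0.07), also rose, and the abundant nucleolar proteins Ncl (0.16 ± 0.05) and Npm1 (-0.04 ± 0.04) were not called. Of 23 aminoacyl-tRNA synthetase genes 7 were called higher and 1 lower, which became 1 and 3 with library totals, 2 and 1 by glmTreat and 2 and 1 under upper-quartile scaling. Eef1e1, a scaffold of the synthetase complex, rose under each scale (1.83 ± 0.08). In the stress response list, 8 of 28 genes were called higher and 2 lower (5 with library totals): Mthfd2, a mitochondrial enzyme of one-carbon metabolism (2.01 ± 0.15), and Chac1 (2.37 ± 0.35) rose, Eif2ak3, the sensor kinase PERK, fell (-1.27 ± 0.06), and the chaperones Hspa5 (0.16 ± 0.13) and Hsp90b1 (0.07 ± 0.10) were not called.

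Genes of DNA replication and of DNA repair were called lower more often than the 21.5% of all genes, and genes of mitosis at a share near it. Of 40 genes of DNA replication, 24 were called lower and 16 were not called, with a median of -0.66. Pola1, the catalytic subunit of polymerase alpha, stood at 4.68, 4.4, 3.67, 3.6 and 3.51 CPM with CL075, against 13.1, 11.1, 13.5, 14.2 and 13.4 CPM in control BMDMs. Again the groups were apart, with a log2 fold change of -1.73 ± 0.09 (SE, edgeR adjusted p = 8.4e-12). Pole2, a subunit of polymerase epsilon, had -1.92 ± 0.12, Rrm1, of ribonucleotide reductase, had -0.65 ± 0.05 with no call by glmTreat, Mcm6 (-0.53 ± 0.07) was called lower under upper-quartile or library-total scaling alone, and Pcna, the sliding clamp, was not called (0.16 ± 0.08).

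Of 35 genes of DNA damage checkpoint and repair, 19 were called lower and 2 higher, with a median of -0.74. Chek2, a checkpoint kinase, stood at 5.53, 3.97, 4.03, 4 and 4.51 CPM with CL075, against 18.6, 17.4, 18.5, 19.3 and 19.8 CPM in control BMDMs. It had a log2 fold change of -2.09 ± 0.09 (SE, edgeR adjusted p = 2.1e-13), without overlap, and Parp1, the sensor of strand breaks, had -1.01 ± 0.07. The 2 that rose, Cdkn1a, which encodes the cell cycle inhibitor p21 (0.92 ± 0.10), and Mdm2, the ligase of p53 (0.85 ± 0.07), were not called with library totals, and Trp53 itself was not called (-0.05 ± 0.05). Of 35 genes of mitosis and spindle, 9 were called lower (25.7%) and 26 were not called, with a median of -0.31, and 25 were called lower with library totals. Cenpa, the histone of the centromere (-1.65 ± 0.08), and Bub1b, of the spindle checkpoint (-0.97 ± 0.08), fell, and Mki67 (-0.13 ± 0.09) and Top2a (-0.30 ± 0.07) were not called.

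Genes of the cilium fell in a like share: 19 of 33 were called lower (12 by glmTreat) and 2 higher (1 with library totals), with a median of -0.65. Bbs9 (-2.10 ± 0.12) and Bbs2 (-1.61 ± 0.11), subunits of the BBSome coat, fell most, and Ift57, which also acts in cell death signaling, rose (1.91 ± 0.06).

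Iron, heme and antioxidant genes were called higher more often than lower. Of 21 genes of iron, heme and metal handling tested, of 23 listed, 11 were called higher and 3 lower, with a median of 0.84. Fth1, the ferritin heavy chain, was the called gene of highest level in the table, at 17818, 20801, 16781, 18621 and 16109 CPM with CL075, against 9072, 10254, 7756, 8505 and 7994 CPM in control BMDMs. The groups were apart, with a log2 fold change of 1.05 ± 0.10 (SE, edgeR adjusted p = 3.4e-08). Hmox1, heme oxygenase, stood at 1587, 2041, 1343, 1544 and 1214 CPM with CL075, against 357, 544, 343, 382 and 328 CPM in control BMDMs, and had a log2 fold change of 1.98 ± 0.17 (SE, edgeR adjusted p = 3.4e-09). Steap4, a metalloreductase, held 672 counts with CL075 and 0 in control BMDMs, at least 287-fold higher against the floor of 3 counts over the group, and Lcn2, which binds bacterial iron carriers, had 4.81 ± 0.24. Slc40a1, the iron exporter ferroportin, fell (-1.20 ± 0.15), as did Steap3 (-1.30 ± 0.10), and the light chain gene Ftl1 was not called (0.10 ± 0.12). Among 28 antioxidant genes 13 were called higher and 15 were not called, of which library totals called 3 lower: Sod2, the mitochondrial superoxide dismutase (5.05 ± 0.06), Gsr, glutathione reductase (3.24 ± 0.10), Prdx1 (1.37 ± 0.15) and Cybb, the catalytic subunit of the phagocyte oxidase (1.80 ± 0.06), rose.

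Purine receptors and enzymes were split, with 6 of 15 tested genes called higher and 6 lower. Adora2a, a receptor of adenosine, stood at 9.36, 8.5, 7.43, 10.6 and 8.25 CPM with CL075, against 0.258, 0.265, 0.108, 0.229 and 0.209 CPM in control BMDMs, with no overlap and a log2 fold change of 5.34 ± 0.23 (SE, edgeR adjusted p = 2.4e-13). P2ry2, a receptor of UTP and ATP, rose too (3.28 ± 0.11). P2rx7, the ATP-gated channel, fell, at 31.7, 29, 29.4, 29.4 and 34.9 CPM with CL075, against 93.6, 83.7, 96.2, 95.4 and 99.5 CPM in control BMDMs, with a log2 fold change of -1.60 ± 0.06 (SE, edgeR adjusted p = 6.2e-14), and Entpd1, which encodes CD39, the enzyme that removes ATP outside the cell, fell (-1.60 ± 0.10).

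The transcription factors of the lineage and the nuclear receptors, taken as 1 list, moved in both directions. Of 28 tested genes, 7 were called higher and 8 lower (25% and 28.6%, against 17.6% and 21.5% of all genes tested). The numbers were 3 and 13 with library totals, and 4 were called higher by glmTreat. Spi1, which encodes PU.1 (1.58 ± 0.06), Cebpb (1.79 ± 0.08, 20.7% of its exon bases shared with the other strand) and Cebpd (2.07 ± 0.12) rose; Vdr, the receptor of vitamin D (-2.85 ± 0.22), and Nr4a2 (-2.29 ± 0.11) fell. Among 33 histone and DNA modifying enzymes, 6 were called higher and 8 lower (18.2% and 24.2%), shares near those of all genes tested. The numbers were 3 and 15 with library totals, and 5 were called lower by glmTreat. The demethylase gene Kdm6b (1.72 ± 0.10) and Tet2 (1.59 ± 0.08) led the rises. Dnmt1 (-0.84 ± 0.05), Hdac5 (-0.86 ± 0.09) and Hdac11 (-3.95 ± 0.54) were among those that fell. Of 16 clock genes 5 were called lower and 1 higher (2 without CL075 replicate 1 or 4, without control replicate 2, with RLE factors and by DESeq2): Dbp (-1.95 ± 0.19) and Per3 (-2.30 ± 0.14), both outputs of the clock, fell and Ciart, a repressor of it, rose (2.26 ± 0.14).

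Genes of apoptosis, caspases and the inflammasome went both ways. Of 36 genes tested, 13 were called higher and 7 lower. Cflar, the inhibitor of caspase-8, stood at 434, 426, 483, 440.0 and 405 CPM with CL075, against 96.5, 99.5, 99, 99.7 and 93.5 CPM in control BMDMs. No library of one group reached the other, with a log2 fold change of 2.16 ± 0.05 (SE, edgeR adjusted p = 1.7e-16). Bcl2a1b (3.62 ± 0.12) and Bcl2a1d (4.05 ± 0.13), near-identical copies of a survival gene whose reads can be split between them, rose. Bmf, a BH3-only gene outside the list, fell, at 3.66, 3.18, 2.11, 2.13 and 3.71 CPM with CL075, against 50.2, 48.8, 52.4, 49 and 56 CPM in control BMDMs, with a log2 fold change of -4.11 ± 0.12 (SE, edgeR adjusted p = 9.0e-16), as did Pmaip1, another BH3-only gene (-1.76 ± 0.11), and Nlrp1b, an inflammasome sensor (-3.48 ± 0.10). Casp1 (1.17 ± 0.09) and Casp4 (3.01 ± 0.13) rose, Casp2 (-1.27 ± 0.07) fell, and Casp8 was not called (0.10 ± 0.07). In autophagy 3 of 30 genes were called higher (10%, against 17.6% of all genes tested) and 6 lower (20%, against 21.5%). The numbers were 1 and 14 with library totals. Sqstm1, the receptor p62, had 1.16 ± 0.11, and Ulk1, the kinase that starts autophagy, had -1.42 ± 0.06.

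Rgs2, a regulator that shortens signals of G protein-coupled receptors, had one of the deepest falls and was not called with poly(I:C). It stood at 8.93, 7.94, 8.45, 8.18 and 10.7 CPM with CL075, 283, 330.3, 353, 255 and 289.8 CPM with poly(I:C) and 259.7, 281, 318, 291 and 270.1 CPM in control BMDMs. The CL075 libraries lay below all others, with a log2 fold change of -5.00 ± 0.10 (SE, edgeR adjusted p = 1.5e-17), while poly(I:C) over control was 0.09. The direct contrast of CL075 with poly(I:C), in which 23.7% of all tested genes were called higher and 22.7% lower with CL075, gave -5.09 ± 0.10 (SE, edgeR adjusted p = 6.1e-18).

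The direct contrast was also taken for other genes described above, since both agonists share their control libraries. With Rgs2 these were 19 picked genes, all of them called, which do not stand for all genes tested. Cxcl3 stood at 46, 70.7, 48.1, 41.5 and 31.7 CPM with CL075, 0.253, 0.219, 0.0548, 0.0942 and 0 CPM with poly(I:C) and 0.0573, 0.345, 0.0542, 0.143 and 0.209 CPM in control BMDMs, and the direct contrast was 8.59 ± 0.36 (SE, edgeR adjusted p = 6.6e-14). Il1b stood at 1183, 1611, 1923, 1504 and 1376 CPM with CL075, 25.2, 26.5, 36.6, 22.5 and 24.3 CPM with poly(I:C) and 7.77, 10, 16.6, 11.7 and 14.1 CPM in control BMDMs, with a direct contrast of 5.82 ± 0.20 (SE, edgeR adjusted p = 4.0e-15). For both genes the CL075 libraries were the highest of all. The direct contrast was positive and called for Irak3 (3.10 ± 0.05), Zc3h12a (2.80 ± 0.06), Ptges (3.93 ± 0.12), Slc2a1 (2.22 ± 0.15), Hmox1 (2.03 ± 0.17), Gsr (2.97 ± 0.10), P2ry2 (5.33 ± 0.15) and Ticam2 (2.98 ± 0.06). It was negative and called for Tlr3 (-4.89 ± 0.12), Tlr7 (-1.62 ± 0.07), Tlr9 (-3.65 ± 0.10), Ifnb1 (-5.97 ± 0.15), Cxcl10 (-5.53 ± 0.21), Nos2 (-3.30 ± 0.19), Mertk (-3.23 ± 0.09) and Entpd1 (-1.63 ± 0.10). Dose and molecule both differed between the agonists, so these values compare the treatments as given and not the receptors. A contrast also takes in any change with poly(I:C) over control, which is not given for the genes named by their contrast alone.

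The cells carried the markers of macrophages in both groups. Of 14 marker genes tested, of 15 listed, 3 were called higher and 1 lower (3 with library totals), and the list summed to 38304 to 43730 CPM with CL075 and to 36984 to 40413 CPM in control BMDMs. Lyz2 (-0.07 ± 0.08) and Cd68 (-0.03 ± 0.07) were not called. Neutrophil markers were present at a low level, which summed to 118 to 239 CPM with CL075 and to 24.8 to 103 CPM in control BMDMs. Of 9 tested, of 11 listed, 3 were called higher, S100a8, Camp and Mmp8, and 5 were with replicate number as a block, without CL075 replicate 3 and without control replicate 2. Mmp8 had 0.59 ± 0.13, and without CL075 replicate 1 or 2 or control replicate 3, 4 or 5 its values of 0.57, 0.52, 0.50, 0.58 and 0.54 were not called. The part of these markers in the rise of Lcn2, Csf3 and the other neutrophil-related genes was not tested. Ngp, a granule protein of developing neutrophils, stood at 22.9, 32.2, 7.5, 21.9 and 11.1 CPM with CL075, against 11.8, 20, 4.09, 11.2 and 7.01 CPM in control BMDMs, and its groups overlapped. It was called under the block (0.82), without CL075 replicate 3 (1.02) and without control replicate 2 (1.16). Within each group, replicate 2 was the highest and replicate 3 the lowest in Ngp. Ly6g, the defining marker of mature neutrophils, held at most 0.0367 CPM in any of these libraries.

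Globin genes set CL075 replicates 2 and 3 apart. Hba-a2 stood at 0.0425, 14.6, 13.4, 0.0367 and 0 CPM with CL075, against 0, 0.0796, 0, 0 and 0 CPM in control BMDMs, and Hbb-bs at 0.128, 10.6, 11, 0.183 and 0 CPM with CL075, against 0.0573, 0, 0, 0 and 0 CPM in control BMDMs. These replicates held nearly all of the counts, poly(I:C) replicate 3 held more still (18.3 and 15.8 CPM), and neither gene passed the filter for testing. Of the other marker lists, that of plasmacytoid dendritic cells summed to 316 to 411 CPM with CL075 and to 271 to 304 CPM in control BMDMs, of which Bst2, also on the list of interferon-stimulated genes, made up 227 to 319 CPM with CL075 and 145 to 161 CPM in control BMDMs. Of its 5 genes tested, of 6 listed, 2 were called higher (Bst2 not with library totals) and 2 lower (1 with RLE factors, by DESeq2 and glmTreat, without CL075 replicate 1 and without control replicate 3), and Siglech, its defining marker, was at most 0.487 CPM in any of the 10 libraries. The list of T and NK cells summed to 37.5 to 47.9 CPM with CL075 and to 46.5 to 56.8 CPM in control BMDMs, with 0 of its 2 tested genes called (Cd4 lower with library totals) and Trac at 0 in all 10 libraries. Most of that sum was Cd4, at 36.4 to 47.1 CPM with CL075 and 46.3 to 56.5 CPM in control BMDMs. Conventional dendritic cells summed to at most 2.72 CPM, and mast cells and basophils to at most 1.8 CPM, in any of the 10 libraries. Fibroblast markers summed to 3.07 to 4.25 CPM with CL075 and to 0.921 to 1.97 CPM in control BMDMs, and B cell markers to 2.83 to 3.85 CPM with CL075 and to 11.6 to 13.5 CPM in control BMDMs, where Cd79b fell (-2.14 ± 0.10) and Ighm was at 0 in all 10 libraries.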

How the data were processed

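Total RNA of 15 BMDM cultures was sequenced with a stranded mRNA kit as single reads. Per the study's methods, the authors trimmed the reads, mapped them to GRCm38.p6 with Ensembl annotation in CLC Genomics Workbench, allowing up to 5 hits per read, and deposited the count of reads per gene and the TPM of each library. Neither the strand setting nor the CLC version is stated. The submitters' processing notes also name bcl2fastq, HISAT2, featureCounts and edgeR. Columns of fold change, p-value, RPKM and unique reads, and 25 further columns of single samples, were not used, nor were the authors' own comparisons and the tables filtered on them.

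The deposited counts of all 15 libraries were fitted by group with edgeR 4.0.16 in R 4.3.3 (filterByExpr, TMM factors, quasi-likelihood test, Benjamini-Hochberg adjustment over the 11804 genes tested), with no replicate block. The study's methods name the quasi-likelihood test and the call thresholds, for counts made with HISAT2 and featureCounts that are not the counts used here, and do not state the design or the scaling. A gene was called at an adjusted p under 0.05, a fold over 1.5 and a deposited TPM that averaged over 0.5 in either group of the comparison, and no pseudocount was added to a printed level. The alternatives were RLE, upper-quartile and library-total scaling, no filter, DESeq2 1.42.0, glmTreat, the 10 libraries alone, no TPM floor, replicate number as a block, and each CL075 or control library left out. Promoters came from RefSeq (GRCm38.p6).

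Replicate numbers paired the CL075 and control libraries: deviations from the group means correlated at 0.11 to 0.32 (median 0.31) within the 5 same-numbered pairs and at -0.23 to 0.09 between different numbers. The labels do not say what a number stands for, so the pairing comes from the data. No libraries agreed within sampling noise, and the 5 control libraries are the same in both tables. The genes and lists were chosen with earlier results of these data known. A gene could be named if it was among the 15 largest changes in each direction with at least 10 CPM, among the 15 most abundant called genes, among the 4 most abundant or the 2 largest rises or falls of its list, or on the marker lists, the lists of Toll-like receptors and TLR7 signaling or the study's heat map. Results of a few genes are not reported here.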

Additional observations from a re-analysis of the deposited data

Results flagged for a closer look

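For the 48 genes whose value in every library is given, 96 groups of 5 libraries were checked for a library that stood apart from the other 4 by Dixon's limit. It was passed in 10 groups, or 10.4%, while chance passes it in about 1 of 20 groups. The share is not to be read as an excess: in Hba-a2 and Hbb-bs the other 4 control libraries were at 0, where counts in 1 library alone pass the limit by construction, and the control libraries of Il6 held few counts.

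In 4 genes the library was control replicate 2. Slc2a1 was at 40.6 CPM there and at 18.7 to 23.7 CPM in the other control libraries, Hmox1 at 544 CPM against 328 to 382 CPM, Il6 at 0.159 CPM against 0 to 0.0286 CPM, and Hba-a2 at 0.0796 CPM against 0. In each of Slc2a1, Hmox1 and Il6 this library still lay below every CL075 library. Control replicate 5 stood high in Ldhb, at 26.2 CPM against 20.3 to 20.8 CPM, and in Ptgs1, at 32.2 CPM against 24.2 to 26.0 CPM, and control replicate 1 in Hbb-bs, at 0.0573 CPM against 0. Among the CL075 libraries, replicate 2 stood high in Cxcr4, at 7.84 CPM against 5.88 to 6.34 CPM, and in Fpr1, at 1047 CPM against 957 to 976 CPM, and replicate 5 stood low in Cpt1a, at 61.4 CPM against 74.7 to 76.1 CPM. The calls of these genes that were tested did not change without the library in question.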

How the results depend on the processing

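Scaling moved the counts most: library totals gave 1208 genes called higher and 4184 called lower, in place of 2082 and 2534, and 1208 and 2534 of the calls were shared. Under the other alternatives the counts ran from 1592 to 2245 higher and from 1991 to 3154 lower. Without CL075 replicates in turn they were 2074 to 2127 higher and 2510 to 2597 lower, and without control replicates 2043 to 2127 higher and 2495 to 2584 lower. With the replicate block they were 2093 and 2558, and among the 248 named genes the block changed the call of Ngp and no other. Of 4708 values of named genes under an alternative, 41 lost a call, 16 gained one and the others kept it, with no called value turning its sign. Of 1862 list counts, 39 fell and 61 grew by over 1.5 times, 40 of them with library totals. The cause was not tested. The 19 direct contrasts with poly(I:C) kept their calls under each alternative that could give one.

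Haemoglobin genes were too uneven to be tested after filtering, and were called in 3 cases with no filter. Genes with under 3 counts in a group have a fold that depends on the prior count. A stranded count cannot be assumed, so genes that share exon bases with the other strand are marked where named.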

Other observations

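Some of the largest changes lay outside the pathways described above. Cd38, an enzyme of the cell surface that consumes NAD, stood at 165, 192, 171, 227 and 179.8 CPM with CL075, against 1.03, 1.03, 0.487, 1.4 and 1.09 CPM in control BMDMs. The groups lay far apart, with a log2 fold change of 7.53 ± 0.17 (SE, edgeR adjusted p = 4.0e-17). Deptor, which encodes an inhibitor of the kinase mTOR, fell, at 2.89, 3.28, 2.18, 2.75 and 3.48 CPM with CL075, against 56.8, 52.6, 59.3, 59.9 and 61.9 CPM in control BMDMs. Its groups did not overlap either, with a log2 fold change of -4.31 ± 0.09 (SE, edgeR adjusted p = 3.0e-17). Engase, a cytosolic glycosidase (-4.34 ± 0.14), Rnf150, a RING finger gene (-4.16 ± 0.13), and Sgsh, a lysosomal sulfatase with 21.6% of its exon bases shared with the other strand (-3.89 ± 0.14), were among the 15 largest falls of genes with at least 10 CPM.

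Transporters of amino acids, peptides and metals and the inflammatory effector proteins gave less even pictures. Of 18 transporter genes tested, of 20 listed, 7 were called higher and 3 lower (5 with library totals), with a median of 0.40. Slc31a2, a transporter of copper (2.55 ± 0.05), Slc15a3, a lysosomal carrier of histidine and peptides with 28.1% of its exon bases shared with the other strand (1.48 ± 0.08), and Slc3a2, the heavy chain of several amino acid transporters (1.34 ± 0.06), rose. Slc38a9, a sensor of lysosomal arginine, stood at 18.2, 18.2, 16.6, 17.4 and 17 CPM with CL075, against 40, 40.2, 46.3, 44.3 and 40.5 CPM in control BMDMs, with a log2 fold change of -1.27 ± 0.05 (SE, edgeR adjusted p = 1.5e-13) and no overlap between the groups. Of 22 effector genes tested, of 24 listed, 10 were called higher and 1 lower, Gpr35 (-0.62 ± 0.09), which was not called with RLE factors, by DESeq2, by glmTreat or at -0.56 without CL075 replicate 1 and became 1 of 2 with library totals. The most abundant genes of that list, Lyz2, Thbs1, a matrix glycoprotein (-0.18 ± 0.16), and Spp1, which encodes osteopontin (-0.03 ± 0.24), were not called.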
